A study of Mus musculus with 28 samples.

Results

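The Dlx genes are 6 homeobox genes that lie in 3 pairs on mouse chromosomes 2 (Dlx1 and Dlx2), 6 (Dlx5 and Dlx6) and 11 (Dlx3 and Dlx4), 6 of the 21887 protein-coding genes placed on the assembled chromosomes. They were taken by name, and every consensus region of the histone variant H3.3 or of H3K27ac that touched a pair or the 50 kb on either side of it was read from the positions in mm10. The cells were E14, a male line of mouse embryonic stem cells, grown with LIF. H3.3, H3K27ac, H3K122ac and a control without primary antibody were each profiled by CUT&RUN, in which an antibody guides a tethered nuclease to chromatin of nuclei and the released DNA is sequenced. Each of these 4 targets had 7 libraries. The mutant genotypes, as labelled, were H3f3a_AA_H3f3b_WTA with 2 libraries a target (clone 1 and clone 2), and H3f3a_AA_H3f3b_WTWT, H3f3a_WTWT_H3f3b_AA and H3f3a_WTA_H3f3b_AA with 1 library a target each. Wildtype cells had 2 libraries a target. The series title names the change H3.3K122A. The genotypes differ in how many copies of the H3.3 genes H3f3a and H3f3b are labelled A, and in which of these genes. For 3 of the mutant genotypes, a target thus rests on a single library, and a medium with added GSK3 and MEK inhibitors is described without saying which libraries it applies to.

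The 2 lists analysed give only the positions of consensus regions, so no value below belongs to a library, a genotype or a replicate, and read depth is unknown. How many libraries stand behind a region is not given, so no count could be split by replicate. No test was made, and mutant cells could not be compared with wildtype cells. Where no region is listed, signal below the threshold of the consensus cannot be told apart from none. The H3.3 list held 5430 regions on assembled chromosomes, covering 4.01 Mb, and the H3K27ac list 57844 regions, covering 77.5 Mb. The label of the cells was checked with 10 embryonic stem cell markers, chosen, like the other markers, with earlier results of these data known. All 10, Pou5f1, Sox2, Nanog and Esrrb among them, had an H3K27ac region within 1 kb of an annotated end, against 38.8% of all protein-coding genes. None of 6 GABAergic neuron, 5 epidermis, 5 cartilage and bone and 4 trophoblast markers had one, and 1 of 4 fibroblast markers had (Thy1, 213 bp). Away from the ends, H3K27ac lay inside Krt10 (265 bp), an epidermis marker, and Col2a1 (595 bp), a cartilage marker. The bone markers Sp7 and Bglap had 34600 and 34231 bp of it within 50 kb.

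Dlx proteins are homeodomain transcription factors related to Drosophila Distal-less. They pattern the ventral forebrain, the pharyngeal arches, the limbs and the skin, and in mammals the genes of each pair are transcribed towards each other and share enhancers in the space between them. Dlx1 and Dlx2 drive the migration and differentiation of GABAergic interneurons, Dlx5 and Dlx6 specify the lower jaw and act in bone and limb, Dlx3 acts in skin, hair, tooth and placenta, and Dlx4 is expressed in placenta and is the least studied. In embryonic stem cells, genes of this kind are classical Polycomb targets held silent until lineage commitment. H3.3 is the H3 variant placed in chromatin outside DNA replication, and H3K27ac is an acetylation found at active promoters and enhancers.

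The promoter sequences are shown first because the H3.3 regions at Dlx1 and Dlx2 cover them whole and those of the long noncoding gene Dlx6os1 lie outside the regions. Each is the 250 bases before a start site in RefSeq (GRCm38.p6, the coordinates of mm10), read 5′ to 3′ on the strand of the gene, and capitals mark every CG and every TAATTA, a core motif bound by homeodomain proteins. They lie at chr2:71529195-71529444 on the plus strand (Dlx1), chr2:71546755-71547004 on the minus strand (Dlx2), and chr6:6869534-6869783 and chr6:6861684-6861933 on the minus strand (Dlx6os1, start sites 6869533 and 6861683).
Dlx1: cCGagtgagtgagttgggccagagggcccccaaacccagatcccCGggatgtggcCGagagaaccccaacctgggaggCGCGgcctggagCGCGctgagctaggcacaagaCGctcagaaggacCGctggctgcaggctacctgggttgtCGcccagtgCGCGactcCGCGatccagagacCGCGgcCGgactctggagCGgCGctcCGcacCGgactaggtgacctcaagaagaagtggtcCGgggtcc
Dlx2: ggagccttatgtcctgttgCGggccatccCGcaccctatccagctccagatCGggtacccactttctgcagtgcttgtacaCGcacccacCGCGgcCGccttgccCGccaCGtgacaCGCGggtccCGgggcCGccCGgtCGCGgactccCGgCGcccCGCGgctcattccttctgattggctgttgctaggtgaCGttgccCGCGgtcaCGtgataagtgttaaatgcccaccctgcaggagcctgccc
Dlx6os1, first start site: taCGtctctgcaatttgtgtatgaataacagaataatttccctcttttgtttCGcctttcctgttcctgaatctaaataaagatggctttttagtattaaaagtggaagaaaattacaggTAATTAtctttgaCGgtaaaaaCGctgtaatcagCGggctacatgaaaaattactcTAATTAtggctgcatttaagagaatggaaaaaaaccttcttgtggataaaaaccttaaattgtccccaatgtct
Dlx6os1, second start site: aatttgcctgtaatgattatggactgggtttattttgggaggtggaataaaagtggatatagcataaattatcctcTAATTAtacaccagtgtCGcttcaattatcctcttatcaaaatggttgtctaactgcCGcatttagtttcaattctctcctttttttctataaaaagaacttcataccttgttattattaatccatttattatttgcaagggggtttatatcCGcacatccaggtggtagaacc

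The Dlx1 and Dlx2 promoters were rich in CG and the Dlx6os1 promoters were rich in A and T. Dlx1 held 22 CG dinucleotides at a GC content of 68.0%, and Dlx2 held 24 at 66.4%. Neither held TAATTA. The Dlx6os1 promoters held 5 and 3 CG at 33.2% and 34.0% GC, with TAATTA present 2 times in the promoter at start site 6869533 and 1 time in that at 6861683. TAATTA reads the same on both strands and, holding only A and T, cannot overlap a CG. Of 32851 RefSeq promoters of this length, 4.84% held at least 1. Promoters with 20 CG or more made up 17.9%. Both Dlx1 and Dlx2 passed that number, and 13.3% and 10.7% of all promoters held more CG than they did. This is common among promoters touched, like these, by H3.3 and not by H3K27ac. Of those, 41.7% held 20 CG or more, and their quartiles were 13 and 23.

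H3.3 covered much of the Dlx1 and Dlx2 pair and of the Dlx5 and Dlx6 pair, and very little of the Dlx3 and Dlx4 pair, while H3K27ac lay inside none of the pairs. In the windows of a pair plus 50 kb on either side, H3.3 regions numbered 3 at Dlx1 and Dlx2, 5 at Dlx5 and Dlx6 and 2 at Dlx3 and Dlx4, and they covered 13.3, 9.84 and 1.26 kb. H3K27ac regions numbered 1, 0 and 5 in the same windows and covered 0.79, 0 and 4.83 kb. Measured between the outermost ends of the paired genes, H3.3 covered 68.1% of the 18.6 kb of Dlx1 and Dlx2, 34.4% of the 18.7 kb of Dlx5 and Dlx6 and 1.83% of the 26.2 kb of Dlx3 and Dlx4. H3K27ac covered 0 bp of each of these spans. The order of the pairs by H3.3 was thus the same for the number of bases and for the share of the span. The pair with the least H3.3 had the most H3K27ac around it. With 50 kb on either side, the pair with no H3K27ac in its window, Dlx5 and Dlx6, did not have the most H3.3. The 2 marks thus did not run in opposite order at this flank. That rests on 3 pairs and on the single H3K27ac region near Dlx1 and Dlx2, which lay 28039 bp from Dlx1. With a flank of 25 kb, Dlx1 and Dlx2 had 0 bp of H3K27ac, as did Dlx5 and Dlx6, so the order of these pairs was not settled.

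**Figure D1:**
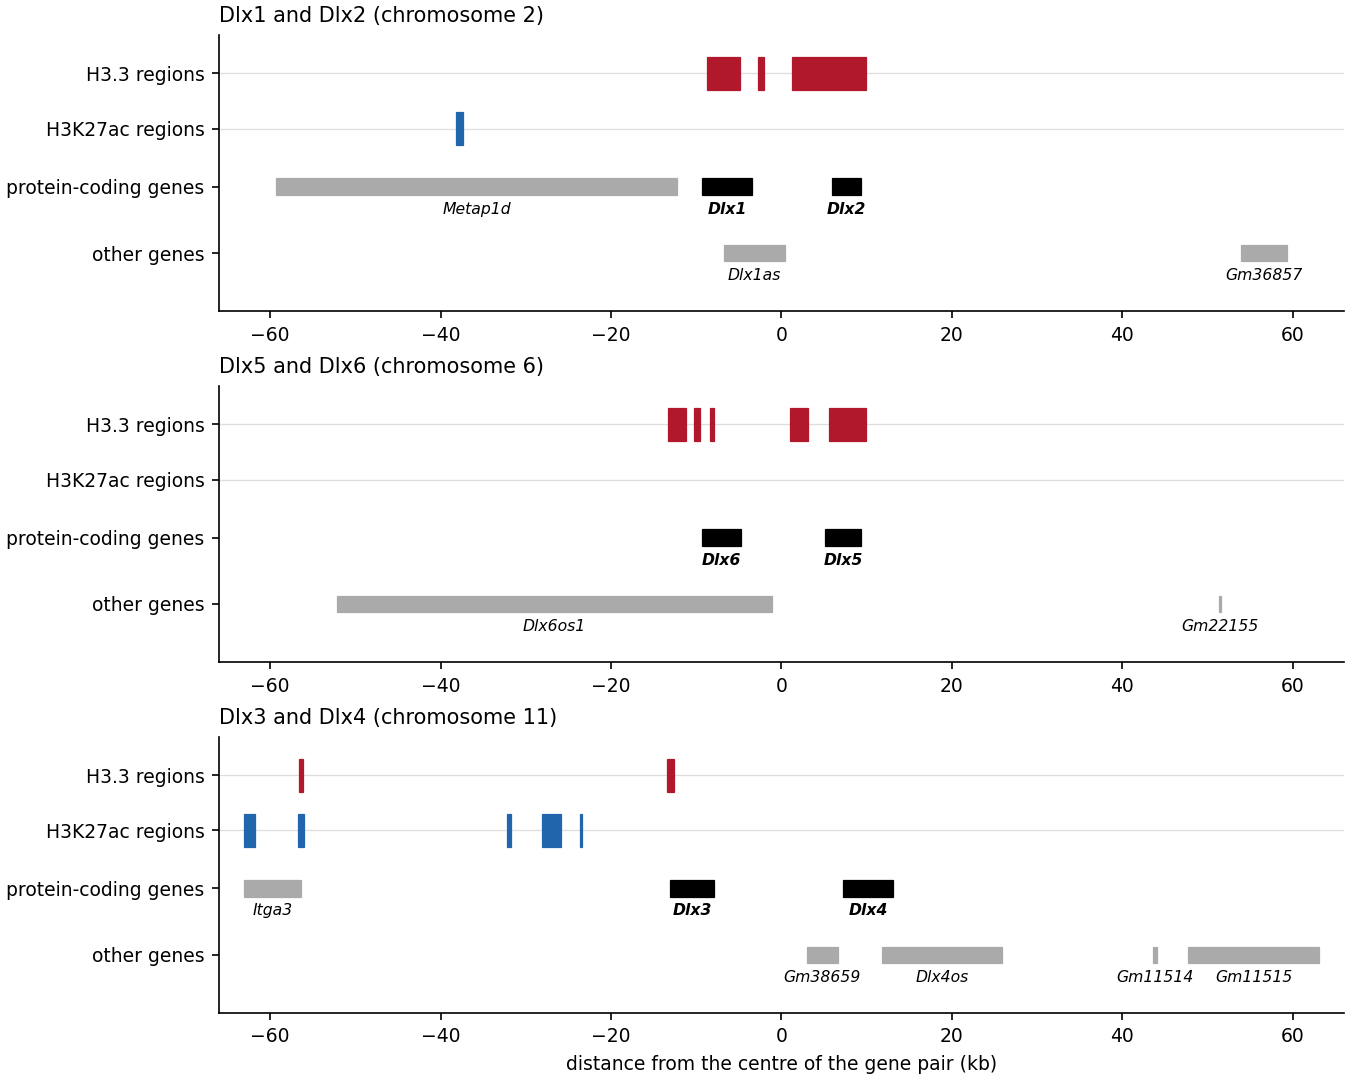
Maps of the 3 windows, each a gene pair plus 50 kb on either side, with distance from the centre of the pair (kb) on the x axis. Red boxes are H3.3 regions, blue boxes H3K27ac regions, black boxes Dlx genes and grey boxes other annotated genes cut at the window (Dlx6os2, inside Dlx6, is not drawn). Of the 10 H3.3 regions, 3 lie on or between Dlx1 and Dlx2, 5 on, between or just outside Dlx5 and Dlx6, 1 at Dlx3 and 1 at Itga3. The H3K27ac regions lie at 10.3 kb or more from any Dlx gene.

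Together the 3 windows, 363.6 kb in all, held 10 H3.3 regions. Of these, 1 touched an H3K27ac region, whereas 47.5% of all H3.3 regions did, and that region lay at the neighbouring gene Itga3. The 9 others include every H3.3 region at a Dlx gene. All 10 were wider than 451.5 bp, the median of the H3.3 list, and their own median was 1432.5 bp. Regions of over 2 kb numbered 5 of the 10, against 6.11% of the whole list. The median width of the 6 H3K27ac regions was 753.5 bp, and that of the whole H3K27ac list 812 bp. The H3K27ac count depends on the flank, being 3 with 25 kb and 17 with 100 kb, while the H3.3 count was 9 and 10.

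**Figure D2:**
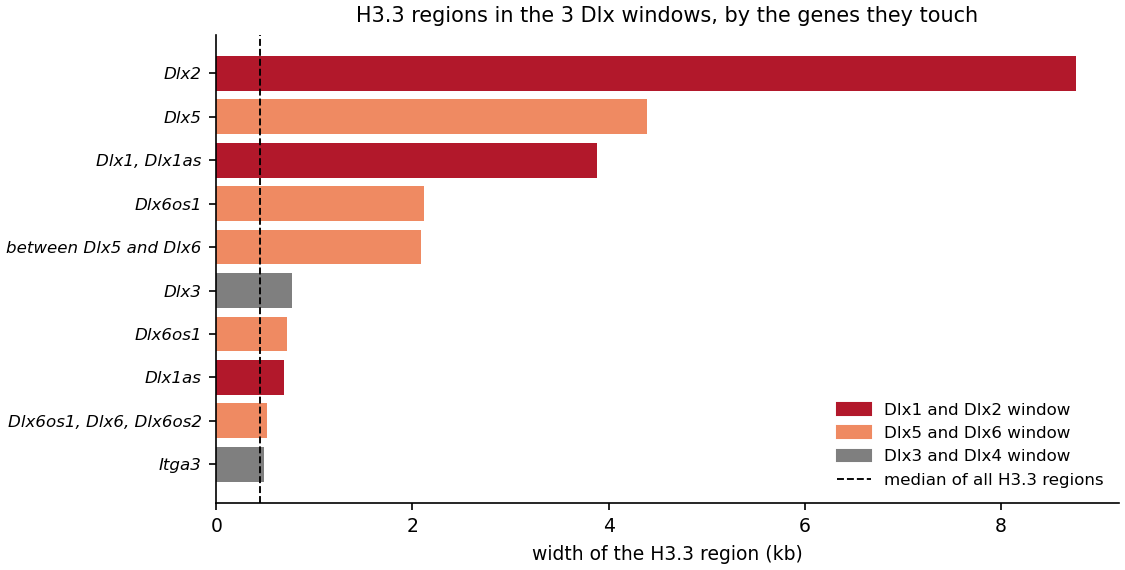
Width (kb, x axis) of each of the 10 H3.3 regions in the 3 windows, labelled by the annotated genes it touches and coloured by window, with the median of all 5430 H3.3 regions as a dashed line. The region over Dlx2 is 8763 bp wide and that at Itga3 490 bp, just above the median of 451.5 bp.

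Dlx2, a forebrain interneuron and upper jaw regulator, lay whole inside a single H3.3 region. This region, on chromosome 2 from 71538622 to 71547384, measured 8763 bp, and 10 of the 5430 H3.3 regions were wider (0.184%). It covered all 3347 bp of the gene (71543408 to 71546754), reached 630 bp past the end where the Dlx2 start site lies, and ran 4786 bp the other way into the space between the genes. Of all protein-coding genes, 0.0822% lay whole inside an H3.3 region, which is 18 genes, and Dlx2 was the sole member of the family among them. That share depends on gene length. The median protein-coding gene was 17169 bp long, more than the widest H3.3 region at any gene end (13931 bp), so many genes could not lie inside one. Its nearest H3K27ac region was 43.3 kb away.

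Dlx1, the partner of Dlx2 in the ganglionic eminences, carried an H3.3 region of 3880 bp from 71528664 to 71532543. It covered 66.1% of the 5869 bp of the gene (71528113 to 71533981). The start site of the promoter table, at 71529445, lay inside it, and the annotated outer end of the gene was 550 bp outside it. A smaller region of 689 bp, from 71534703 to 71535391, lay 721 bp past the inner end of Dlx1 within the antisense gene Dlx1as. The 3 regions of this pair were 2159 and 3230 bp apart and covered 58.1% of the 9426 bp between the genes. The single H3K27ac region of the window, 790 bp from 71499284 to 71500073, lay within Metap1d, a mitochondrial methionine aminopeptidase gene, 28039 bp from Dlx1.

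Dlx5, a regulator of lower jaw and bone, had the second widest H3.3 region of the family. It measured 4393 bp, on chromosome 6 from 6878231 to 6882623, and it ranked 66 in the list, with 1.20% wider. It covered 89.9% of the 4268 bp of the gene (6877801 to 6882068), reached 555 bp past the outer end and stopped 429 bp short of the inner end. Another region of 2091 bp, from 6873705 to 6875795, touched no annotated gene and lay between the pair, 2005 bp from Dlx5. The H3K27ac region nearest to Dlx5 was 74.2 kb away.

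Dlx6, which acts with Dlx5, was covered less. Regions of 722 bp (6862434 to 6863155) and 522 bp (6864304 to 6864825) lay at its outer end, the wider of them 178 bp outside the gene and the other within it. H3.3 covered 11.3% of its 4637 bp (6863334 to 6867970). A wider region of 2115 bp, from 6859408 to 6861522, lay 1811 bp beyond that end, inside Dlx6os1, the long noncoding gene also known as Evf2 that spans Dlx6 and whose RNA takes part in Dlx5 and Dlx6 regulation. H3.3 regions covered 3359 bp of the 51085 bp of Dlx6os1 but came within 1 kb of neither of its ends. The window of this pair held no H3K27ac region, and the nearest lay 88.3 kb from Dlx6.

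Dlx3, the skin, tooth and placenta member, had an H3.3 region at its outer end only. It measured 774 bp, on chromosome 11 from 95119823 to 95120596, spanned the outer end at 95120117 and covered 9.27% of the gene (95120117 to 95125296). It ranked 1466 in the H3.3 list by width. Dlx4 (95140447 to 95146294) was the member without an H3.3 region, with the nearest 19850 bp away. The 15.2 kb between Dlx3 and Dlx4 held no region of either list, while 58.1% of the space was covered by H3.3 at Dlx1 and Dlx2 and 21.3% at Dlx5 and Dlx6.

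The H3K27ac of the Dlx3 and Dlx4 window lay on the side of Itga3, an integrin subunit gene. Regions of 425 bp (95101024 to 95101448), 2163 bp (95105136 to 95107298) and 259 bp (95109515 to 95109773) fell between Itga3 and Dlx3 and touched no annotated gene, and the last was 10.3 kb from Dlx3. Regions of 1448 bp (95069935 to 95071382) and 717 bp (95076412 to 95077128) touched Itga3. The 717 bp region enclosed all 490 bp of the H3.3 region at the same end of Itga3 (95076550 to 95077039). The Itga3 promoter, inside both, held 22 CG, as many as that of Dlx1. Both promoters lay inside an H3.3 region, of 3880 bp at Dlx1 and 490 bp at Itga3, and H3K27ac was listed at Itga3 alone. What sets these 2 promoters apart was not tested.

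At gene ends, defined as within 1 kb of an annotated end, 5 of the 6 Dlx genes had an H3.3 region, against 16% of all protein-coding genes, and Dlx4 had none. An H3K27ac region was at the end of 0 of the 6, against 38.8%. H3.3 without H3K27ac was thus found at 5 of 6 Dlx genes, against 5.31% of all genes, and neither mark at 1 of 6, against 55.8%. Regions of over 4 kb at a gene end were found at Dlx2 and Dlx5, and at 0.32% of all genes. By end, H3.3 lay at 5 of the 6 outer ends, which face away from the partner, and at 3 of the 6 inner ends, against 8.53% of all 43774 gene ends. The inner ends were those of Dlx1, Dlx2 and Dlx5. For Dlx1 and Dlx2 the promoter table places the start site towards the outer end.

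Within the gene plus 50 kb on either side, all 6 Dlx genes had more H3.3 than the median gene, and Dlx1, Dlx2, Dlx4, Dlx5 and Dlx6 had less H3K27ac. Dlx3 had 4830 bp of H3K27ac there, above the median. The members' H3.3 values were 13.3 kb for Dlx1 and for Dlx2, 9.84 kb for Dlx5 and for Dlx6, 1.26 kb for Dlx3 and 0.774 kb for Dlx4. The 2 genes of a pair share these bases, all of them in the pairs on chromosomes 2 and 6 and the 774 bp at Dlx3 in the pair on chromosome 11, so partners are not independent. The median was 9843 bp for the members and 0 bp for all protein-coding genes, 58.7% of which had no H3.3 region in this window. Only 0.260% of genes had more H3.3 around them than Dlx1 and Dlx2, 0.480% more than Dlx5 and Dlx6, 12.3% more than Dlx3 and 20.1% more than Dlx4. For H3K27ac the median was 790 bp for the members and 3940 bp for all genes. Dlx5 and Dlx6 had no H3K27ac in that window, which was also true of 26.8% of all genes. The distance from the gene to the nearest H3K27ac region ran from 10.3 kb at Dlx3 to 88.3 kb at Dlx6, against a median of 0.499 kb over all genes. Of all genes, 20.8% lay farther from H3K27ac than Dlx6 and 40.5% farther than Dlx3.

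**Figure D3:**
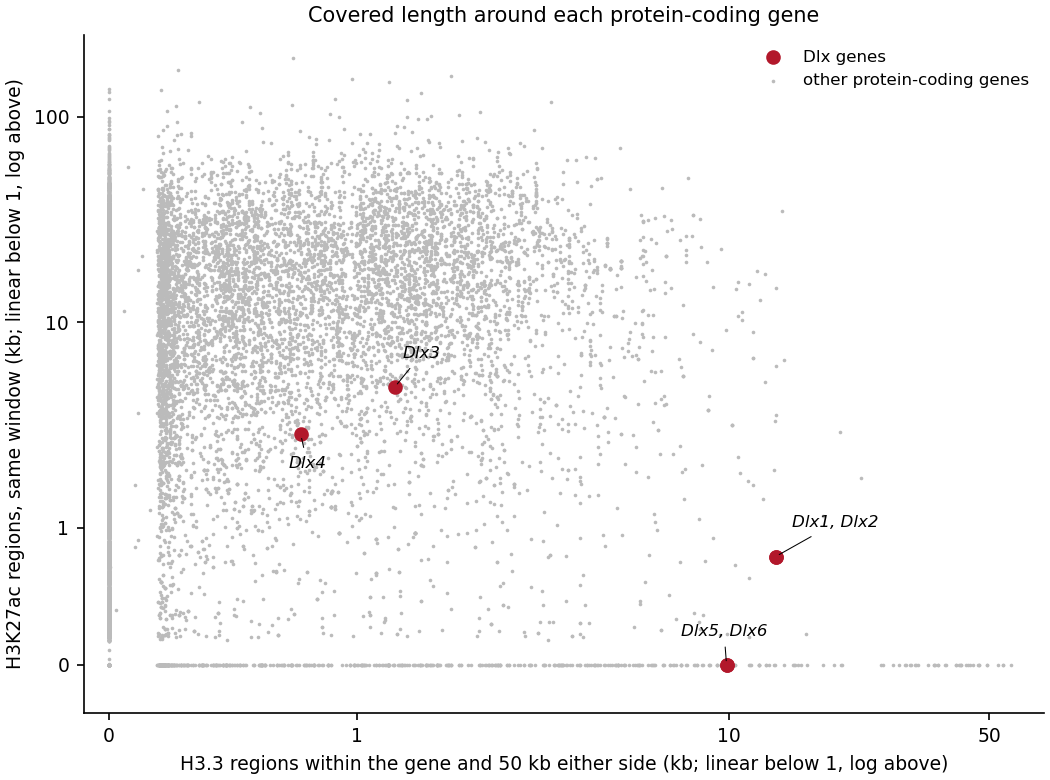
Length of H3.3 regions (x axis, kb) and of H3K27ac regions (y axis, kb) within each protein-coding gene plus 50 kb on either side, both axes linear below 1 and logarithmic above. Red points are the 6 Dlx genes (partners with equal values share a point) and grey points the 21887 protein-coding genes. Dlx1 and Dlx2 lie at 13.3 and 0.79 kb, Dlx5 and Dlx6 at 9.84 and 0 kb, Dlx3 at 1.26 and 4.83 kb and Dlx4 at 774 and 2847 bp.

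Joining H3.3 regions less than 10 kb apart gave 4259 chains across the genome. The chain over Dlx1 and Dlx2 held 13.3 kb of H3.3 in 3 regions over 18.7 kb and ranked 17 by covered length. That over Dlx5 and Dlx6 held 9.84 kb in 5 regions over 23.2 kb and ranked 36. The region at Dlx3 stayed alone at rank 1286. Joined under 5 kb instead, Dlx1 and Dlx2 ranked 16 and Dlx5 and Dlx6 broke at the 8879 bp gap between them into chains of 6.48 and 3.36 kb, at ranks 67 and 184.

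The genes with an H3.3 length around them most like that of the family were found by a fixed rule, as the 10 protein-coding genes outside the windows with no H3K27ac at a gene end and the value nearest to the members' median of 9.84 kb. They were Meis2 (9.86 kb), a homeobox gene, Cryba2 (9.91 kb) and Fev (9.60 kb), Osr2 (9.98 kb), a zinc finger gene of palate and limb, the homeobox genes Msx1 (9.53 kb) and Hmx2 (10.2 kb), and Bmi1, Commd3, Gm46725 and Spag6 (9.52 kb each). The last 4 have the same value on the same stretch of chromosome 2, so they count as 1 place, and Cryba2 and Fev are close neighbours on chromosome 1 whose windows overlap. Hmx3, the neighbour of Hmx2, has the same value as Hmx2 and tied for the last place, which went to Hmx2 by alphabet. Fev is an ETS factor of serotonin neurons, Cryba2 a lens crystallin gene and Bmi1 a Polycomb repressive complex 1 gene.

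Genes that work before, beside or after the Dlx genes were grouped in 5 lists of 43 genes in all. The lists were chosen with earlier results of these data known, so their shares are descriptions and not independent results. Of the 43 genes, 24 had H3.3 at a gene end, against 16% of all protein-coding genes, and 3 had H3K27ac, against 38.8%. None of the 43 had both at a gene end, against 2332 of all 21887 protein-coding genes. As only 3 of the 43 had H3K27ac there, this count of 0 rests on few genes. Of the 7 sister homeobox genes, 6 had H3.3 and 0 H3K27ac, with the widest regions at Msx1 (7198 bp), Hmx2 (6041 bp), Barx1 (4365 bp) and Hmx3 (2957 bp). Msx1 and Barx1 act in tooth and face, and Hmx2 and Hmx3 in the inner ear and hypothalamus. Msx2, a craniofacial gene, had no region at an end but 3.14 kb of H3.3 within 50 kb. All 10 ventral forebrain regulators had H3.3 and 0 had H3K27ac. The widest were at Six3 (12043 bp), Gsx1 (6567 bp), Olig2 (4543 bp) and Nkx2-1 (3983 bp).

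The remaining lists hold genes of the differentiating tissues in which Dlx factors act. Their counts are to be read against the same shares of 16% for H3.3 and 38.8% for H3K27ac. Among 10 GABAergic interneuron genes, 4 had H3.3 and 0 had H3K27ac. They include Gad1 (2999 bp) and Gad2 (232 bp), which encode the enzymes that make GABA, and Lhx8 (1163 bp), a LIM homeobox gene. Lhx6, Npy, Satb1 and Slc32a1 were among the 6 with neither, which is near the 55.8% of all protein-coding genes with neither. Within 50 kb, H3.3 covered 3554 bp at Lhx6, 1177 bp at Slc32a1, 332 bp at Satb1 and 0 bp at Npy. Among 10 pharyngeal arch and skeleton genes, 4 had H3.3, at Pitx1 (7830 bp), Col2a1 (2476 bp), Hand2 (1660 bp) and Gsc (588 bp), and 2 had H3K27ac, Bmp4 (3252 bp) and Ednra (208 bp). The skeletal factor genes Runx2 and Sp7 had neither at an end, although Sp7 had 34600 bp of H3K27ac within 50 kb and Runx2 0 bp. Col2a1, a cartilage collagen gene, had 595 bp of H3K27ac inside the gene. Of 6 epidermis and placenta genes, the tissues of Dlx3, 0 had H3.3 at an end and 1, Grhl3, had H3K27ac (286 bp). With 6 genes an H3.3 count of 0 is near the 16% over all genes. Within 50 kb, Tfap2c had 3786 bp of H3.3, Grhl3 203 bp and the others of this list none. Among the 4 trophoblast markers, 2 had H3.3 at an end, Eomes (3867 bp) and Cdx2 (3323 bp), and 2 had neither mark there. The median H3.3 within 50 kb was 9843 bp for the Dlx genes, 7432 bp for the sister genes, 5998 bp for the forebrain regulators, 1592.5 bp for the arch genes, 569.5 bp for the interneuron genes and 0 bp for the epidermis and placenta genes. The differences between these lists were not tested.

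**Figure D4:**
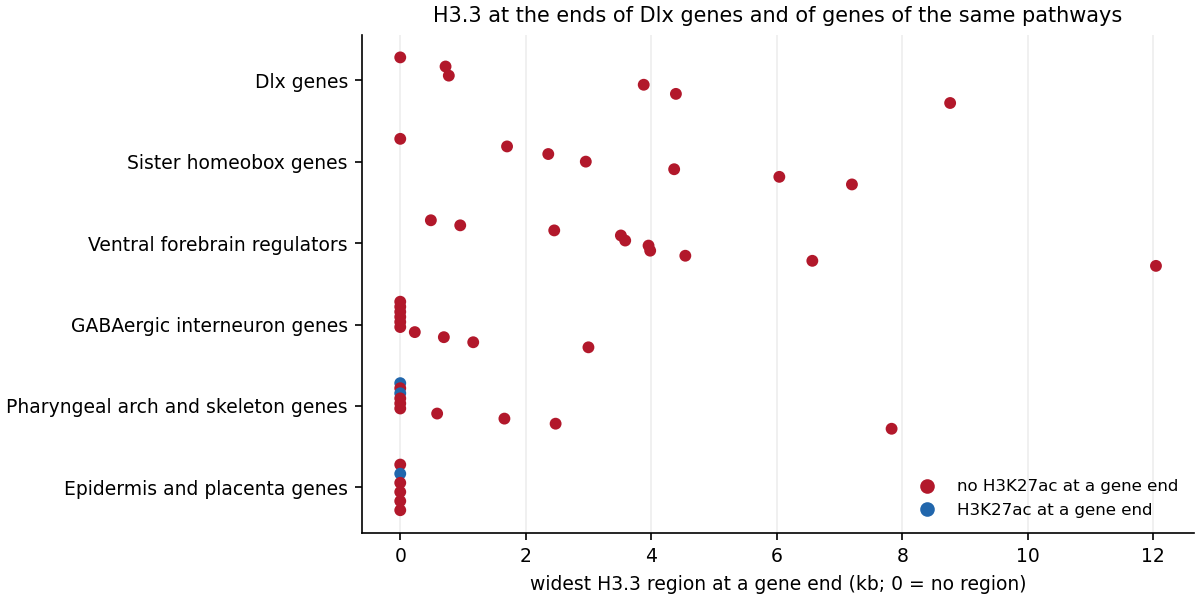
Width of the largest H3.3 region at the ends of the gene (kb, x axis; 0 where none is listed) for each Dlx gene and each gene of the 5 lists, red without and blue with an H3K27ac region at a gene end; vertical offsets within a list carry no value. Dlx2 reaches 8763 bp, Six3 12043 bp, and the 6 epidermis and placenta genes all lie at 0.

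CG content was also compared over all promoters of the windows. No RefSeq promoter matched Dlx3, Dlx4, Dlx5 or Dlx6, so these genes are missing from the comparison. Of the 9 promoters that RefSeq places in the windows, 3 touched an H3.3 region (Dlx1, Dlx2 and Itga3), against 8.04% of all promoters, and these 3 had 22 to 24 CG. The 6 others had 3 to 10. They belonged to Dlx6os1 (2 start sites), Dlx6os2, Dlx4os, Gm38659 and Gm36857. These are all long noncoding genes, whereas the 3 with H3.3 are protein-coding. Within the windows, a difference by H3.3 thus cannot be told apart from a difference by gene type. Genome-wide, the median was 18 CG over the 1462 promoters that touched H3.3 and not H3K27ac, 13 over the 4350 that touched H3K27ac and not H3.3, 17 over the 1180 that touched both and 4 over the 25859 that touched neither. The Dlx6os1 promoter at start site 6861683 lay 161 bp from an H3.3 region without touching it. TAATTA was found in 1.64% of the promoters with H3.3 alone and in 5.48% of those with neither. The genome-wide classes were not split by gene type, so the same limit applies to them. These are descriptions of sequence in a fixed window, and no motif match here is shown to be bound.

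**Figure D5:**
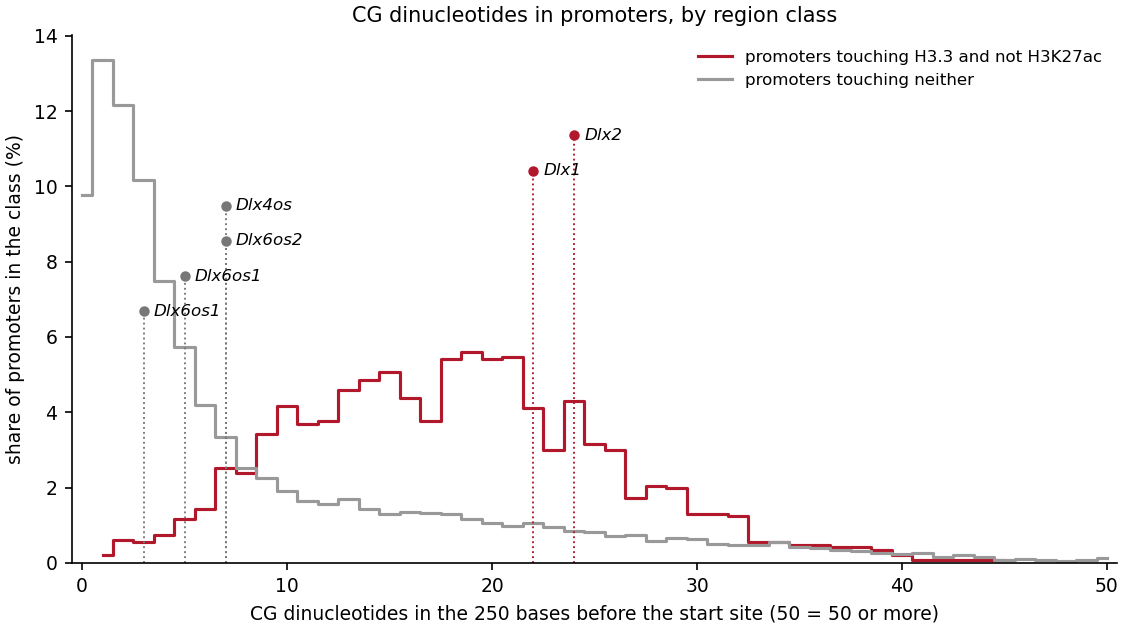
Number of CG dinucleotides in the 250 bases before the start site (x axis) against the share of promoters (y axis, %), for the 1462 promoters touching H3.3 and not H3K27ac (red) and the 25859 touching neither (grey). Stems mark promoters of Dlx1, Dlx2 and the noncoding genes Dlx6os1, Dlx6os2 and Dlx4os, red where H3.3 touches them. Their heights carry no value. Dlx1 stands at 22 and Dlx2 at 24, the others at 3 to 7.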

How the data were processed

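The 28 CUT&RUN libraries were grouped by target and genotype from their titles. Bowtie2, SAMtools, deepTools, MACS2 and the build mm10 are named, without roles, per the submitters' processing notes. The sources used here do not give how the consensus was made from single libraries, its threshold or which genotypes entered it. The deposited files are other than scores or counts: they list the chromosome, start and end of each region, pooled over libraries by the authors, with no value for a library. The nuclease fusion and the salt at which digestion was stopped differed between H3.3 and H3K27ac, per the labels' protocols, so lengths of the 2 lists do not compare amounts. Of the deposited regions, 16 for H3.3 and 13 for H3K27ac lay off the assembled chromosomes and were left out.

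Starts were raised by 1 to be 1-based. Genes came from RefSeq for GRCm38.p6, which gives no strand or exons in its gene table, and promoters from RefSeq sequences, which matched Dlx1 and Dlx2 and not Dlx3, Dlx4, Dlx5 or Dlx6. A region belonged to a window or gene end if it touched it by 1 bp, and lengths were clipped to the window. Distances count the bases in between. Interval code (Python 3.11.15, pandas 2.3.3) was tested on simulated data. No statistical test was run. The members, the 5 gene lists and the markers were chosen with earlier results of these data known. The named genes were the 6 members, all genes in the windows, the 10 most alike genes, and in each list up to 4 with the widest H3.3 region and up to 4 others. Runx2, Sp7 and the markers Pou5f1, Sox2, Nanog, Esrrb, Eomes and Cdx2 were named as well, after their values were seen. A listed gene may be counted here without being named. Alternatives covered the flank, the gene-end window, the overlap rule, joining of regions and the wider 50% of each list.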

Additional observations from a re-analysis of the deposited data

How the results depend on the processing

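Of 35 recomputed values of the counts and lengths over the 3 windows and of the Dlx genes with a region at a gene end, 27 stayed within 1.5 times the reported value and 8 did not. Some of the 27 could not move. All 10 H3.3 regions were wider than the median of their list, so the wider 50% kept them all. The 5 of 6 Dlx genes with H3.3 at a gene end became 4 with a window of 500 bp and were 5 otherwise. The 0 of 6 with H3K27ac stayed 0 throughout, although the 500 bp window and the wider 50% could not have raised it. H3K27ac in the windows numbered 3 regions (2847 bp) with a flank of 25 kb, 17 (11210 bp) with 100 kb and 2 (3429 bp) with the wider 50% of each list, against 6 (5620 bp) as reported. The number of H3.3 regions touching H3K27ac was 0 with the 25 kb flank and 0 with the wider 50%, against 1, because the region at Itga3 then left the window or its H3K27ac partner left the list. A flank of 10 kb around single genes and the joining distances were chosen after seeing the data. With 10 kb, H3.3 was 9929 bp around Dlx1, 9452 bp around Dlx2, 6484 bp around Dlx5 and 5450 bp around Dlx6. It was 774 bp around Dlx3 and 0 bp around Dlx4. No Dlx gene had H3K27ac within 10 kb, which was fixed in advance, as the nearest such region lay 10.3 kb from Dlx3. Of the 12 lengths at 10 kb, 4 stayed within 1.5 times the value at 50 kb and 8 did not. No paired analysis was possible because the lists hold no values for single libraries, and for the same reason no replicate could be left out. Read depth is unknown, which limits every statement that a region is not listed.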
